A study of Drosophila melanogaster with 12 samples.

Results

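The genes described here encode the proteins of the mitochondrial ribosome. They were taken as all genes named on an Affymetrix Drosophila array whose current symbol, looked up by gene identifier, begins with mRpL (large subunit) or mRpS (small subunit), which gave 69 of 11982 named genes, 44 of the large and 25 of the small subunit. For the 2 genes with more than 1 probe set, the probe set with the highest mean over all arrays was used. The reference gene table holds 73 such genes; mRpL34, mRpL37, mRpL53 and mRpS10 had no probe set of their own name alone and were not analysed here.

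RNA came from whole adult males of the wild-type strain Canton-S of Drosophila melanogaster, which carried no transgene. All flies were 3 to 5 days old when feeding began. The 4 groups were high-sugar diet for 4 weeks and control diet for 4 weeks, both sacrificed at 31 to 33 days of age, and high-sugar diet for 2 days and control diet for 2 days, both sacrificed at 5 to 7 days of age. Each group held 3 arrays, named in the labels as biological replicates, 12 arrays in all. The sugar content of the diets was not given in the sources used here.

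The mitochondrial ribosome translates the few proteins encoded by mitochondrial DNA, all of them subunits of the oxidative phosphorylation complexes. Its RNAs come from the mitochondrial genome, whereas every one of its proteins is encoded in the nucleus, made in the cytoplasm and imported. The small subunit reads the messenger RNA, and the large subunit joins the amino acids. Some proteins descend from bacterial ribosomal proteins and keep their number (up to L36 and S21), while most with higher numbers are particular to mitochondria. There are exceptions, such as mRpL47, which corresponds to bacterial L29. Subunits are grouped here by symbol; in mammals the proteins first called S18A and S30 were later located in the large subunit by structural work.

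The deposited values are linear probe set intensities. The 69 genes ran from 101 to 2292 over the 12 arrays, well above the value of 11.78 to which low intensities were set, and all 69 passed the filter on dim probe sets. The 3 brightest probe sets were those of mRpS5, mRpL28 and mRpS21, and the 3 dimmest those of mRpL39, mRpL11 and mRpL21; brightness depends on the probes, so levels were not compared between genes. The spread between arrays of a group was small, with a median within-group SD of 0.121 on the log2 scale (0.062 to 0.215) against 0.163 over all 10418 genes tested. Correlations between arrays of a group, across genes, were 0.984 to 0.993. With 3 arrays a group the precision was limited, and a log2 difference between groups had a median standard error of 0.109 for these genes. Unless stated otherwise, a gene is said to have risen or fallen where its adjusted p was under 0.05 by limma with Benjamini-Hochberg adjustment over all 10418 genes, and changes are given on the log2 scale unless a fold is named.

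The comparison of diets asked how high-sugar feeding altered the transcripts of the mitochondrial ribosome. After 4 weeks, 0 of the 69 genes were higher and 0 were lower on the high-sugar diet by limma, where 0.806% of all genes tested were higher and 1.12% lower, 1.93% in all. The log2 fold changes ran from -0.21 to 0.24 with a median of 0.02, beside a median of 0.01 over all genes. An unadjusted p under 0.05 was reached by 1 gene, against 19.9% of all genes. For all 69 genes the 95% interval of the change lay within 1.5-fold in either direction, with -0.52 and 0.48 (log2) as the outermost bounds. The same held for 7277 of all 10418 genes tested.

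At 4 weeks the highest log2 fold change was that of mRpS11, a protein of the small subunit's platform along the path of the messenger RNA. It stood at 495, 463 and 513 on the high-sugar diet, against 423, 435 and 386 on the control diet. The groups did not overlap, but the log2 fold change of 0.24 (standard error 0.11) did not pass (limma adjusted p = 0.242), and a second, dimmer probe set of mRpS11 gave -0.08. The next highest were mRpL47 (0.22) and mRpL16 (0.21), a protein near the catalytic centre. The lowest was mRpL36, one of the smallest ribosomal proteins, at 246, 254 and 299 on the high-sugar diet, against 286, 305 and 333 on the control diet. Those values overlapped, and the log2 fold change was -0.21 (limma adjusted p = 0.367). mRpS17 (-0.19) and mRpL15 (-0.18) came next. The high-sugar arrays lay entirely above the control arrays for 5 of the 69 genes, against 13.5% of all genes, and entirely below for 1, against 9.79%.

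After 2 days of feeding, likewise, 0 genes were higher and 0 lower on the high-sugar diet by limma; over all genes tested 0% were higher and 0.144% lower. The median log2 fold change was 0.04 and the range -0.24 to 0.26, beside a median of 0.00 over all genes. Again all 69 intervals lay within 1.5-fold (outermost bounds -0.50 and 0.51), as did those of 8355 of all 10418 genes. An unadjusted p under 0.05 was reached by 1 gene, against 8.31% of all genes. That gene was mRpS25, a small-subunit protein particular to mitochondria. Its intensity was 310, 327 and 321 on the high-sugar diet, against 275, 258 and 267 on the control diet. The groups did not overlap, and the log2 fold change was 0.26 (standard error 0.09, limma adjusted p = 0.412). mRpL38 (0.24) and mRpL24 (0.22), which binds early during assembly of the bacterial large subunit, followed.

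At the other end of the 2-day comparison stood mRpL28, with 1882, 1858 and 1682 on the high-sugar diet, against 2203, 2157 and 2052 on the control diet. Its groups did not overlap either, and its log2 fold change was -0.24 (standard error 0.12, limma adjusted p = 0.638). mRpL12, which forms the flexible stalk that recruits translation factors, had -0.20, and mRpS16 had -0.17. The high-sugar arrays lay entirely above the control arrays for 7 genes, against 6.58% of all genes, and entirely below for 3, against 7.65%. By sign alone, 22 of the 25 small-subunit genes and 23 of the 44 large-subunit genes had positive values at 2 days, against 5088 of all 10418 genes. At 4 weeks these counts were 16 of 25 and 23 of 44, against 5429 of 10418, and none of the values at either time passed.

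**Figure D1:**
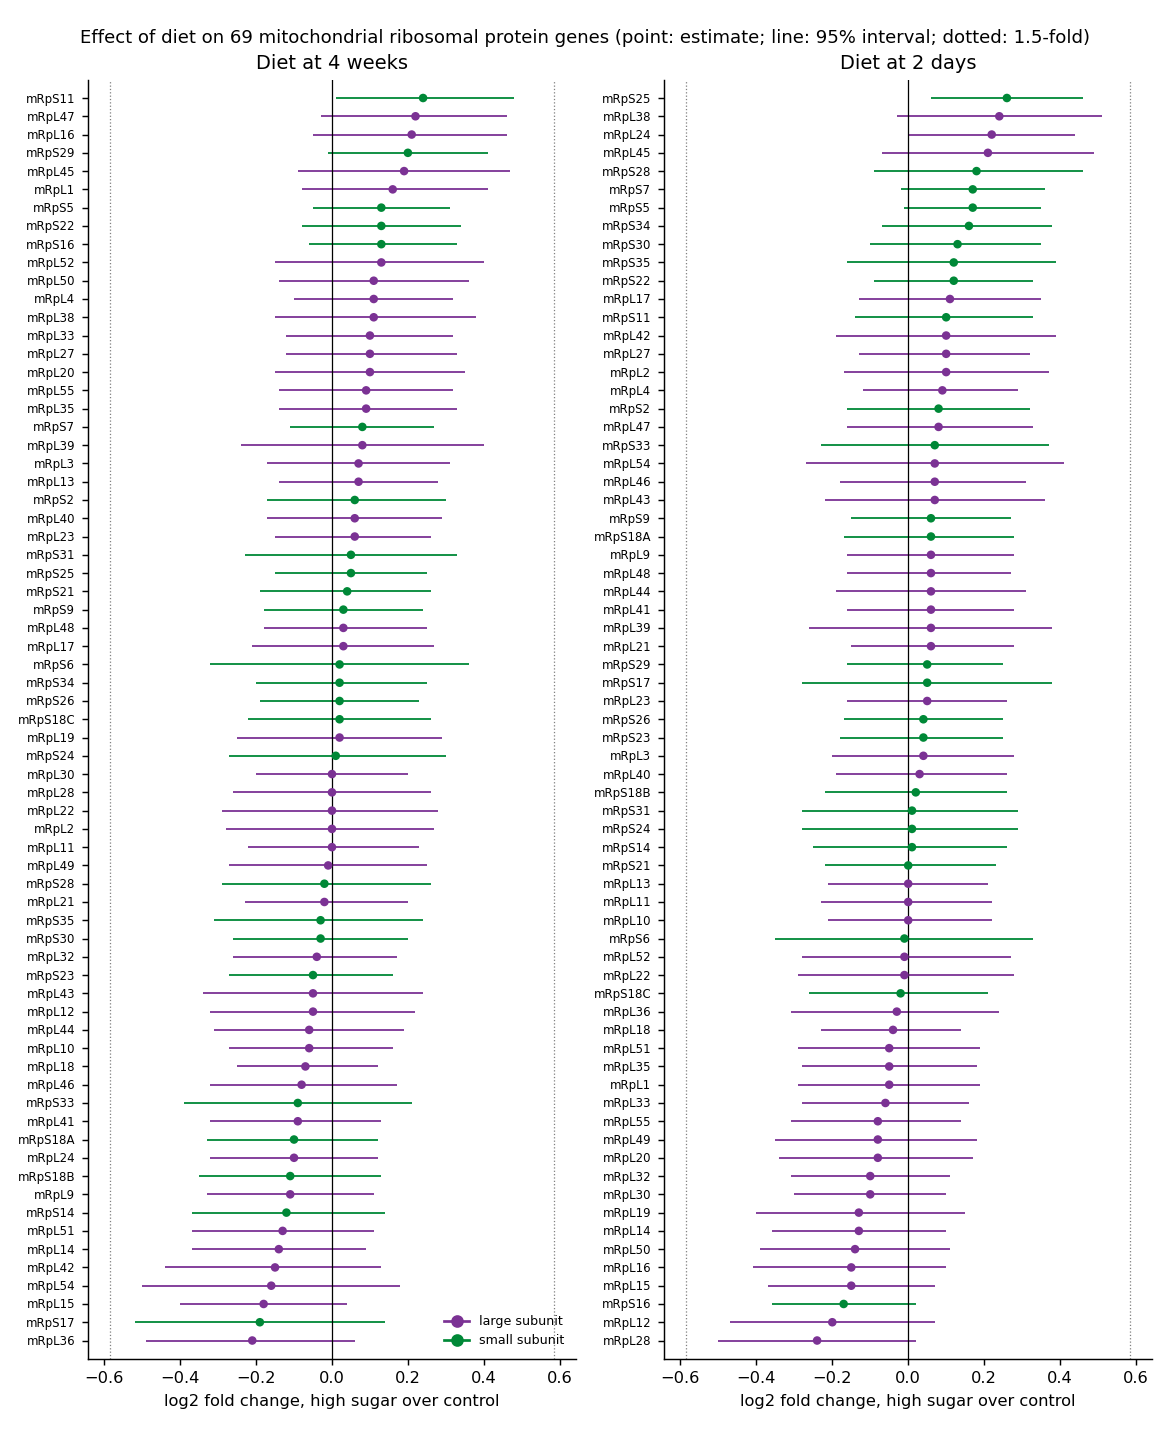
Log2 fold change, high-sugar over control diet, for each of the 69 genes at 4 weeks (left) and 2 days (right), ordered by value; points are limma estimates, lines 95% intervals, and dotted lines mark 1.5-fold. All intervals lie between the dotted lines, from -0.52 to 0.48 at 4 weeks and from -0.50 to 0.51 at 2 days.

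The effects of diet at the 2 times were also set against each other and averaged. The difference (4 weeks minus 2 days) was called for 0 of the 69 genes and for 0% of all genes tested; 2 of the 69, mRpS16 and mRpL24, had an unadjusted p under 0.05, against 7.27% of all genes. The extremes were mRpL16 (0.36) and mRpL24 (-0.32). The 95% interval lay within 1.5-fold for 60 of the 69, against 5308 of all 10418 genes. The next highest were mRpS16 (0.30) and mRpL50 (0.25), and the next lowest mRpL42 (-0.26) and mRpL54 (-0.24). The average of both diet effects, which uses all 12 arrays, was called for 0 of the 69 by limma, where 0.893% of all genes were higher and 1.73% lower, 2.62% in all. It ran from -0.17 to 0.20. An unadjusted p under 0.05 was reached by 5 of the 69, against 19.7% of all genes. The highest averages were those of mRpL45 (0.20), mRpL38 (0.18) and mRpS11 (0.17), and the lowest those of mRpL15 (-0.17), mRpL14 (-0.13) and mRpL12 (-0.13).

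The comparison of feeding times asked what changed between 2 days and 4 weeks on each diet. Some transcripts of the mitochondrial ribosome rose by 1.22 to 1.51-fold and others fell by 1.20 to 1.39-fold. Feeding time and age cannot be told apart in this design, and no batch is given, so a day of processing cannot be told apart from them either. In RNA of whole animals, fewer cells of a type and less RNA per cell cannot be told apart. On the high-sugar diet 10 of the 69 genes rose and 8 fell by limma, where 19.9% of all genes tested rose and 22.7% fell, 42.6% in all; with quantile normalization 15 rose and 5 fell. Their median log2 fold change was 0.11, beside 0.03 over all genes. With time on the control diet, 12 rose and 2 fell by limma, where 14.3% of all genes rose and 18.8% fell, 33.1% in all, with a median of 0.06 beside -0.01. An unadjusted p under 0.05 was reached by 24 of the 69 on the high-sugar diet, against 51% of all genes, and by 28 on the control diet, against 44.8%. The 4-week arrays lay entirely above the 2-day arrays for 25 of the 69 genes on the high-sugar diet, against 28.6% of all genes, and entirely below for 12, against 26.5%. In control-fed flies they lay above for 20, against 20.3%, and below for 5, against 25.1%.

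The small-subunit genes made up 6 of the 10 rises and 2 of the 8 falls on the high-sugar diet, and 9 of the 12 rises and 0 of the 2 falls on the control diet. Their median log2 fold change was 0.18 on the high-sugar diet and 0.19 on the control diet, against 0.06 and 0.03 for the 44 large-subunit genes. Of the large-subunit genes, 4 rose and 6 fell on the high-sugar diet, and 3 rose and 2 fell on the control diet. Among the 12 small-subunit genes with a number above S21, 4 rose and 0 fell on the high-sugar diet and 6 rose and 0 fell on the control diet; the median was 0.19 on the high-sugar diet and 0.30 on the control diet. For the 13 with a bacterial number, 2 rose and 2 fell on the high-sugar diet and 3 rose and 0 fell on the control diet. The rises made up 6 of the 25 small-subunit genes on the high-sugar diet, against 19.9% of all genes. On the control diet they were 9 of 25, against 14.3%. Large-subunit rises were below these shares, at 9.09% on the high-sugar diet and 6.82% on the control diet. Falls on the high-sugar and control diets were 13.6% and 4.55% in the large subunit and 2 of 25 and 0 of 25 in the small. Both were below the 22.7% and 18.8% of all genes. Rises among the 13 with a bacterial number were 15.4%, below the share on the high-sugar diet, and 23.1%, above that on the control diet. Those of the 12 above S21 exceeded the share on both diets. Whether the subunits differed was not tested, and mRpS30 counts among the small-subunit rises by its symbol only. The counts move with single arrays: without high-sugar array 2 at 2 days, 6 rises and 3 falls were left on the high-sugar diet, with 3 rises in the small subunit. Without control array 3 at 2 days, 4 rises were left on the control diet, with 3 in the small subunit, and without control array 1 at 2 days, 5. Leaving out control array 3 at 4 weeks gave 7 rises and 6 falls, and leaving out any 1 of the 6 high-sugar arrays left 3 to 5 falls on that diet.

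**Figure D2:**
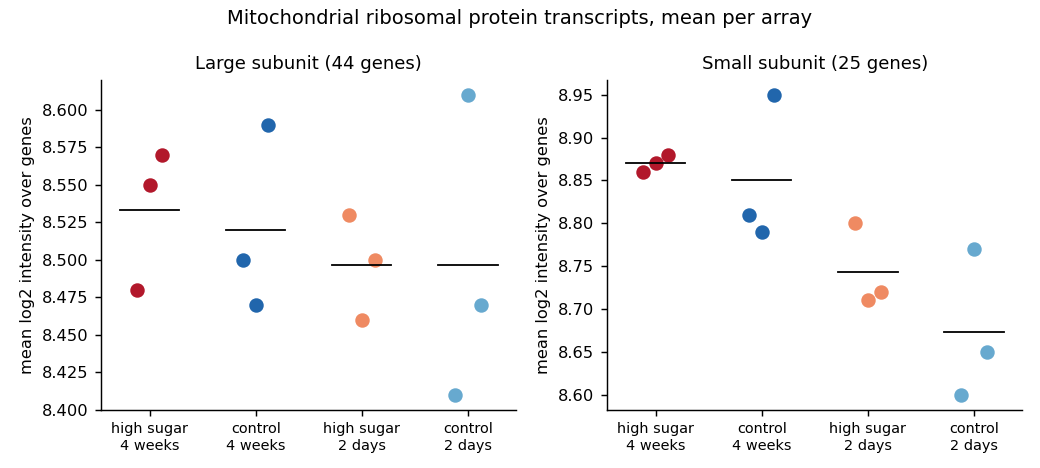
Mean log2 intensity over the 44 large-subunit genes (left) and the 25 small-subunit genes (right) on each of the 12 arrays; points are arrays, lines group means, and the axes do not start at 0. The small-subunit means were 8.86 to 8.88 on the high-sugar diet at 4 weeks, 8.79 to 8.95 on the control diet at 4 weeks, 8.71 to 8.80 on the high-sugar diet at 2 days and 8.60 to 8.77 on the control diet at 2 days; those of the large subunit overlapped in all 4 groups.

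In the small subunit, mRpS30 rose on both diets. Its intensity was 548, 534 and 577 at 4 weeks on the high-sugar diet, against 424, 420 and 397 at 2 days, and 548, 527 and 625 at 4 weeks on the control diet, against 337, 417 and 388 at 2 days. Neither diet's times overlapped. The log2 fold change was 0.42 on the high-sugar diet (standard error 0.11, limma adjusted p = 0.00695) and 0.58 on the control diet (standard error 0.11, limma adjusted p = 0.00185). mRpS22, particular to mitochondria, had 731, 668 and 777 at 4 weeks on the high-sugar diet, against 549, 527 and 541 at 2 days, and 637, 644 and 706 at 4 weeks on the control diet, against 472, 534 and 486 at 2 days. All 4-week arrays were higher than the 2-day arrays of the same diet. The log2 fold change was 0.43 on the high-sugar diet (limma adjusted p = 0.00373) and 0.41 on the control diet (limma adjusted p = 0.00645). These genes passed on both diets under each of the 23 alternatives tried, which include leaving out each array.

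mRpS6, which pairs with S18 on the platform in bacteria, had the largest rise of the 69 on the high-sugar diet. It stood at 530, 458 and 479 at 4 weeks on the high-sugar diet, against 391, 320 and 305 at 2 days, and at 505, 414 and 536 at 4 weeks on the control diet, against 275, 417 and 341 at 2 days. The control groups overlapped in that array 2 at 2 days (417) was above array 2 at 4 weeks (414). The log2 fold change was 0.54 on the high-sugar diet (standard error 0.16, limma adjusted p = 0.0149) and 0.51 on the control diet (standard error 0.16, limma adjusted p = 0.0253). The first call was lost without high-sugar array 2 or 3 at 2 days or array 1 at 4 weeks, with adjusted p up to 0.0548. The second was lost without control array 1 or 3 at either time, with adjusted p up to 0.113. mRpS31 and mRpS21 also rose on both diets, by 0.44 and 0.33 on the high-sugar diet and by 0.39 and 0.29 on the control diet. On the high-sugar diet mRpS31 lost its call without array 2 or 3 at 2 days, and mRpS21 without array 2 at 2 days or array 1 or 3 at 4 weeks (adjusted p up to 0.0817). In the control comparison mRpS31 lost it without control array 1 or 3 at either time, and mRpS21 without any 1 of 9 arrays: all 6 of 2 days and, of 4 weeks, control arrays 2 and 3 and high-sugar array 3. Both control-diet calls were also lost with the replicate number as a block and with only the arrays compared in the fit. The adjusted p there reached 0.137.

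mRpS29, the fly counterpart of the GTP-binding protein DAP3 of mammals, rose on the high-sugar diet. It had 679, 620 and 659 at 4 weeks, against 507, 486 and 484 at 2 days, with no overlap, a log2 fold change of 0.41 and a limma adjusted p of 0.0047. On the control diet its log2 fold change was 0.25 (limma adjusted p = 0.0584). mRpS25 rose on the control diet, with 372, 319 and 349 at 4 weeks against 275, 258 and 267 at 2 days. The groups were clear of each other, and the log2 fold change was 0.38 (limma adjusted p = 0.00905). These 2-day control arrays, whose mean was the lowest of the 4 groups, also entered the gene's diet value at 2 days. mRpS35, also particular to mitochondria, rose by 0.48 on the control diet (limma adjusted p = 0.0126), a call lost without control array 3 at 2 days (adjusted p = 0.0624). mRpS34 (0.34) and mRpS18B (0.35) rose on the control diet too. Both calls were lost without control array 1 or 3 at 2 days or control array 3 at 4 weeks, and that of mRpS34 also without control array 1 at 4 weeks (adjusted p up to 0.115). On the high-sugar diet 2 small-subunit genes fell, mRpS18A (-0.31, limma adjusted p = 0.0272) and mRpS9 (-0.26, limma adjusted p = 0.0455), whose bacterial counterpart contacts the transfer RNA. mRpS18A lost its call without high-sugar array 1 or 2 at 2 days, or with any of the 4-week high-sugar arrays left out; its adjusted p reached 0.0887. mRpS9 lost it under 14 of the 23 alternatives, among them each high-sugar array left out (adjusted p up to 0.146).

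**Figure D3:**
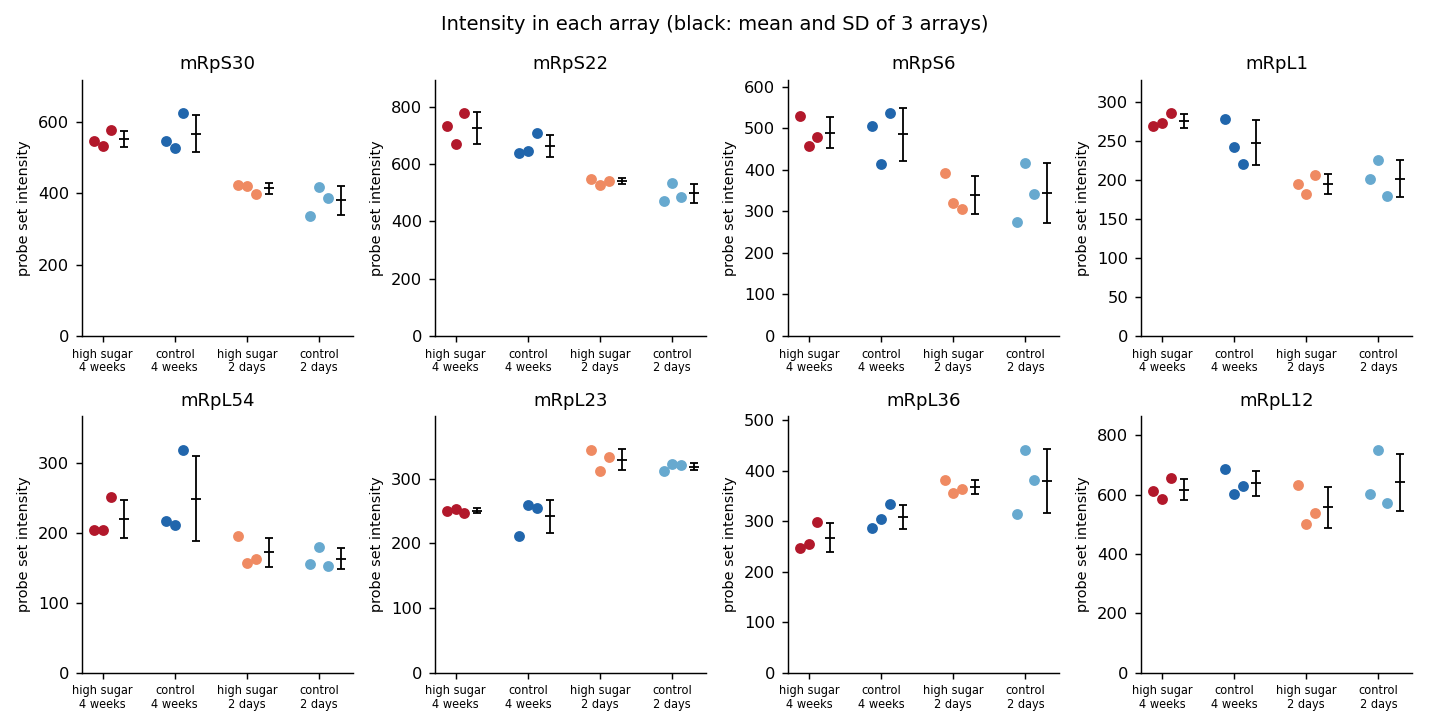
Intensity of 8 genes on each array, by diet and time, from an axis that starts at 0; coloured points are arrays and black marks are means with SD (n = 3). mRpS30, mRpS22, mRpS6, mRpL1 and mRpL54 were higher at 4 weeks on at least 1 diet, mRpL23 was lower on both and mRpL36 on the high-sugar diet, and mRpL12 passed in no comparison.

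In the large subunit, mRpL1 and mRpL11 belong to its mobile parts: in bacteria L1 forms the stalk on the side where spent transfer RNA leaves, and L11 forms the base of the L12 stalk. mRpL1 had 270, 273 and 286 at 4 weeks on the high-sugar diet, against 195, 182 and 207 at 2 days. These groups were clear of each other, and the log2 fold change was 0.51 (standard error 0.11, limma adjusted p = 0.00339). Control-fed flies gave 279, 243 and 221 at 4 weeks, against 201, 226 and 179 at 2 days. Those values overlapped, and the log2 fold change of 0.29 (limma adjusted p = 0.0598) did not pass. mRpL11 rose on both diets, by 0.31 on the high-sugar diet (limma adjusted p = 0.0276) and by 0.30 on the control diet (limma adjusted p = 0.0384). The first call was lost without high-sugar array 2 or 3 at either time, and the second without any control array at 2 days or with control array 1 or 3 or high-sugar array 2 of the 4-week groups left out; the adjusted p reached 0.124. mRpL12, the stalk protein itself, did not pass in any of the 6 comparisons, with a log2 fold change of 0.15 on the high-sugar diet and 0.00 on the control diet.

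mRpL23 and mRpL24 have bacterial counterparts beside the exit of the tunnel through which the new chain leaves. mRpL23 was the 1 gene that fell on both diets. It had 251, 254 and 247 at 4 weeks on the high-sugar diet, against 345, 312 and 334 at 2 days, and 212, 259 and 255 at 4 weeks on the control diet, against 312, 323 and 321 at 2 days. The 4-week arrays lay below the 2-day arrays on both diets. The log2 fold change was -0.40 on the high-sugar diet (standard error 0.10, limma adjusted p = 0.0056) and -0.40 on the control diet (standard error 0.10, limma adjusted p = 0.00736), and both calls held under all 23 alternatives. mRpL24 fell by 0.34 on the high-sugar diet (limma adjusted p = 0.0183) and had -0.02 on the control diet. The call was lost without high-sugar array 2 at 2 days or array 1 at 4 weeks (adjusted p up to 0.062). The same 2-day high-sugar arrays, whose mean was the highest of the 4 groups, also entered the gene's diet value at 2 days.

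The small zinc-binding proteins L33 and L36 of bacteria have counterparts that moved in opposite directions on the high-sugar diet. mRpL33 had 1441, 1425 and 1341 at 4 weeks on the high-sugar diet, against 1031, 1052 and 1123 at 2 days, a rise of 0.39 on the log2 scale with a limma adjusted p of 0.0081. mRpL36 had 246, 254 and 299 at 4 weeks, against 382, 356 and 363 at 2 days. Its log2 fold change was -0.47 (standard error 0.13, limma adjusted p = 0.0106), the lowest of the 69 on that diet. Neither gene's times overlapped, and both calls held under all 23 alternatives. On the control diet mRpL36 had -0.29 (limma adjusted p = 0.0966), and it passed there only without control array 1 at 2 days (adjusted p = 0.033).

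Among other large-subunit genes, mRpL54 had the largest rise on the control diet, with 217, 211 and 319 at 4 weeks against 156, 180 and 152 at 2 days. The groups did not overlap, with control array 3 at 4 weeks well above the others. The log2 fold change was 0.59 (standard error 0.16, limma adjusted p = 0.013); the call was lost without control array 3 at 2 days (adjusted p = 0.0509). mRpL52 had 269, 250 and 268 at 4 weeks on the control diet, against 290, 434 and 364 at 2 days. Its 4-week arrays were all lower, and the log2 fold change was -0.45 (standard error 0.13, limma adjusted p = 0.018); the call was lost without control array 2 or 3 at 2 days (adjusted p up to 0.0649). mRpL41 rose by 0.33 on the control diet, a call lost without control array 1 at 2 days or control array 2 or 3 at 4 weeks (adjusted p up to 0.125).

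mRpL51 (-0.36), mRpL44 (-0.32), which carries a domain like that of RNase III, and mRpL9 (-0.28) fell on the high-sugar diet. mRpL51 lost its call without high-sugar array 2 at 2 days or array 3 at 4 weeks, and mRpL44 with any of the 4-week high-sugar arrays, 2-day high-sugar array 1 or 3, or 2-day control array 1 left out. mRpL9 lost it with any of the 2-day high-sugar arrays, 4-week high-sugar array 1 or 3, or 2-day control array 1 left out. Quantile normalization also ended the calls of mRpL44 and mRpL9, and centring on array medians or the replicate number as a block that of mRpL9. The adjusted p of these genes reached 0.143 at most. mRpL47 rose by 0.42 on the high-sugar diet (limma adjusted p = 0.0103). Its second, dimmer probe set gave -0.03, and with the mean of both probe sets the gene did not pass (adjusted p = 0.14).

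Of the 10 genes that rose on the high-sugar diet and the 12 that rose on the control diet, 6 were shared: mRpL11, mRpS6, mRpS21, mRpS22, mRpS30 and mRpS31. Over all genes tested the shared genes made up 51.1% of the rises on the high-sugar diet and 71.0% of those on the control diet. Of the 8 that fell on the high-sugar diet and the 2 that fell on the control diet, 1 was shared, while over all genes 65.6% and 79.2% were. The time comparisons share no arrays with each other, but both use the same estimate of each gene's spread, so their calls are not independent. Of the 69 genes, 58 (84.1%) had the same sign in both comparisons, near the 82.6% of all genes. A difference between diets in the change with time is the same contrast as the difference of the diet effects, which was called for 0 of the 69, so a rise or fall that passed on 1 diet only was not shown to differ from the other diet.

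**Figure D4:**
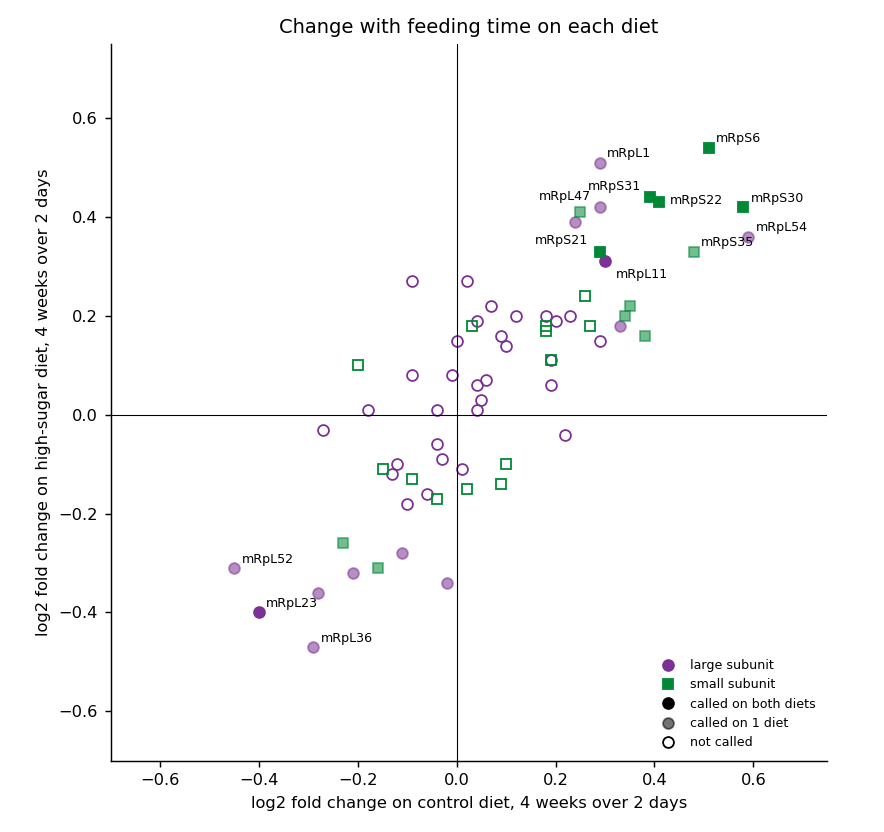
Log2 fold change of 4 weeks over 2 days on the high-sugar diet (vertical) against the control diet (horizontal) for the 69 genes; circles are large-subunit and squares small-subunit genes, dark fill marks genes called on both diets, light fill on 1 diet. Most points lie at the upper right or lower left (58 of 69 share a sign), and 6 genes called on both diets lie at the upper right, mRpL23 at the lower left.

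Proteins of the mitochondrial ribosome under other symbols were looked at beside the 69. tko (technical knockout), the fly counterpart of S12 of the decoding site, whose mutants show bang-sensitive seizures, had 912, 980 and 1117 at 4 weeks on the high-sugar diet, against 808, 799 and 784 at 2 days. It rose by 0.33 on the log2 scale (limma adjusted p = 0.0228), a call lost without high-sugar array 2 or 3 at 2 days or array 3 at 4 weeks (adjusted p up to 0.107). It had 0.11 on the control diet and did not pass. bonsai, the counterpart of S15, passed in none of the 6 comparisons, with 0.17 on the high-sugar diet and 0.01 on the control diet. For the effect of diet, tko had 0.17 and bonsai -0.01 at 4 weeks, and -0.04 and -0.17 at 2 days.

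Nuclear genes for oxidative phosphorylation subunits were set beside the 69. Many of them, but not the Sdh genes, have mitochondrially encoded partners, which the mitochondrial ribosome makes. Of 53 such genes, 46 fell and 1 rose on the high-sugar diet, and 47 fell and 1 rose on the control diet, with medians of -0.39 and -0.34. COX4, a subunit of cytochrome c oxidase, averaged 8804 ± 317 at 4 weeks on the high-sugar diet and 11534 ± 143 at 2 days (SD, n = 3 each), or -0.39 on the log2 scale. ATPsynB of ATP synthase averaged 6956 ± 222 at 4 weeks on the control diet and 9315 ± 330 at 2 days (SD, n = 3 each), or -0.42 on the log2 scale. UQCR-11 of the cytochrome bc1 complex was the gene that rose, by 1.36 on the high-sugar diet and 1.62 on the control diet. Of 21 related copies of such genes whose symbols end in L, 18 fell on the high-sugar diet and 11 on the control diet, and 0 rose on either. Of 41 cytoplasmic ribosomal protein genes, 3 rose and 13 fell on the high-sugar diet and 2 rose and 6 fell on the control diet, with a median of -0.05 on each. These genes were taken by symbol, and related copies and genes named as ribosomal protein-like were not set apart. RpL24-like and RpL34a rose on both diets, and RpL10Ab, RpL22-like, RpL27, RpS19b, RpS28-like and RpS28a fell on both. The falls were 31.7% of the 41 genes on the high-sugar diet and 14.6% on the control diet, against 22.7% and 18.8% of all genes. Those of the oxidative phosphorylation subunits were 86.8% and 88.7%. The median standard error was 0.065 for the oxidative phosphorylation subunits and 0.045 for the cytoplasmic ribosomal proteins, so smaller changes could pass than among the 69 genes.

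**Figure D5:**
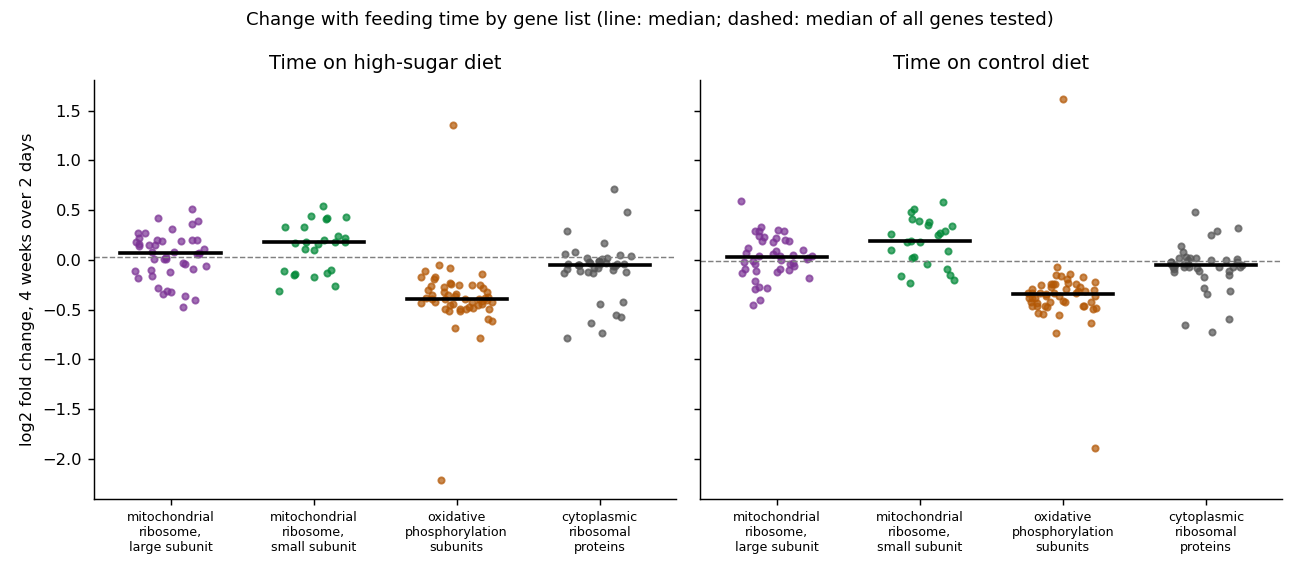
Log2 fold change of 4 weeks over 2 days on the high-sugar diet (left) and the control diet (right); points are genes, bars list medians, and the dashed line is the median of all genes tested. Large- and small-subunit genes of the mitochondrial ribosome spread around medians of 0.06 and 0.18 (left) and 0.03 and 0.19 (right), and the 53 oxidative phosphorylation subunits lie around -0.39 and -0.34.

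Other genes of mitochondrial translation were counted in the same way. Of 9 translation factors, 0 rose and 3 fell on the high-sugar diet, among them mEFTu2 (-0.45) and mEFTs (-0.42), related to the elongation factor that delivers transfer RNA and to the factor that recharges it. On the control diet 1 rose, the release factor mRF1 (0.30), and 1 fell, the initiation factor mIF2 (-0.51). There mEFTu2 had -0.27 and mEFTs -0.18, and neither passed. mEFTu1 had 0.19 on the high-sugar diet and 0.26 on the control diet and passed on neither. Falls among the factors were 33.3% on the high-sugar diet and 11.1% on the control diet, against 22.7% and 18.8% of all genes. Rises were 0.0% and 11.1%, against 19.9% and 14.3%. Of 15 mitochondrial tRNA synthetase genes, 3 rose and 3 fell on each diet, near the 19.9% and 22.7% of all genes on the high-sugar diet and the 14.3% and 18.8% on the control diet. Slimp, a relative of the seryl-tRNA synthetases, rose by 0.57 on the high-sugar diet and by 0.40 on the control diet, and CysRS-m, for cysteine, fell by 0.62 on the high-sugar diet and by 0.56 on the control diet. Of 11 genes that maintain mitochondrial DNA and RNA, 3 rose on the high-sugar diet and 1 on the control diet, and 0 fell. These rises were 27.3% on the high-sugar diet and 9.09% on the control diet, against 19.9% and 14.3% of all genes. mtSSB, which binds single-stranded mitochondrial DNA, rose on both, by 0.83 on the high-sugar diet and 0.43 on the control diet, and bsf, an RNA-binding protein, rose by 0.53 on the high-sugar diet.

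For diet, these lists held few calls, as did all genes tested, of which 1.93% passed at 4 weeks and 0.144% at 2 days. At 4 weeks and at 2 days, 0 of the 53 oxidative phosphorylation subunits, 0 of the 41 cytoplasmic ribosomal protein genes, 0 of the 9 translation factors and 0 of the 15 tRNA synthetase genes passed. In the average of the diet effects 1 cytoplasmic ribosomal protein gene fell, RpL22-like, an alternative form of RpL22, by 0.34 (limma adjusted p = 0.0343). Over all genes tested 2.62% passed there.

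Markers of several tissues moved with feeding time as well, and their part in the changes above was not tested. Over all genes tested, 22.7% fell and 19.9% rose on the high-sugar diet, and 18.8% fell and 14.3% rose on the control diet. Of 18 muscle genes 17 fell on the high-sugar diet and 18 on the control diet; their summed intensity was 60661 to 61931 at 4 weeks on the high-sugar diet, against 92918 to 105839 at 2 days, and 51749 to 58097 at 4 weeks on the control diet, against 85638 to 100158 at 2 days. Of 24 testis genes 19 fell and 0 rose on the high-sugar diet, and 17 fell and 1 rose on the control diet. Their sums were 64939 to 72145 at 4 weeks on the high-sugar diet, against 87683 to 98680 at 2 days. On the control diet the sums were 72459 to 79749 at 4 weeks, against 94847 to 101531 at 2 days. On the high-sugar diet 11 of 13 accessory gland, 6 of 9 photoreceptor, 5 of 15 gut and 2 of 12 neuron genes fell, and on the control diet 10, 6, 1 and 5 of them. In the accessory gland list 2 genes rose on the high-sugar diet and 1 on the control diet. The photoreceptor, gut and neuron lists held 0 rises on either diet. The gut falls were 33.3% on the high-sugar diet and 6.67% on the control diet, and the neuron falls 16.7% and 41.7%, so each list was below the share of all genes on 1 diet. Of 8 fat body genes 3 rose and 1 fell on the high-sugar diet and 2 rose and 1 fell on the control diet. All these counts are of the markers tested, which were fewer than those listed. The lists held 22 muscle, 28 testis, 14 accessory gland, 16 photoreceptor, 19 gut, 14 neuron and 13 fat body genes. None of the marker genes tested was at the floor on all 12 arrays. The summed intensity of the 69 genes was 34436 to 35024 at 4 weeks on the high-sugar diet, 32772 to 35930 at 4 weeks on the control diet, 32104 to 33706 at 2 days on the high-sugar diet and 31116 to 34819 at 2 days on the control diet.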

How the data were processed

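Total RNA of whole flies was hybridized to Affymetrix arrays. Per the series design text, the authors extracted and normalized probe set values with dChip (2006) by its match/mismatch model. The deposited values are intensities on a linear scale from 1 to 16579.5, with array medians of 86.97 to 93.42; detection calls, the reference array and batches are not given in the sources used here.

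Of 18869 probe sets, 100 controls were left out. The array's annotation table gave 1 symbol to 13647 (13544 matched the reference gene table by identifier), several to 402 and none to 4720. A floor was set at the pooled 20th percentile (11.78) before taking log2. Dropping the dimmest 30% of probe sets by mean (log2 below 4.30) left 10418 genes. One limma model of the 4 group means covered the 12 arrays (limma version 3.58.1 under R version 4.3.3; lmFit, then eBayes with trend; 8 residual and 5 prior degrees of freedom), with Benjamini-Hochberg adjustment within each of 6 contrasts. An exact test of 3 against 3 arrays cannot give a p below 0.1 and was not run. The fit was tested on simulated data. Tables and figures were made in Python 3.11.15 with matplotlib 3.10.9 and pandas 2.3.3.

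Named genes were, per contrast, up to 6 higher and 6 lower called genes whose groups did not overlap, the 3 highest and 3 lowest log2 fold changes, mRpL12, tko, bonsai, genes whose probe sets disagree in sign, the brightest and dimmest 3, and up to 2 genes each way of a related list. Other called genes were named after their values were seen. The genes, lists and tests were chosen with earlier results of these data known, so no count is independent evidence. ND-MNLL, a true subunit, was moved by hand from the copies ending in L to the subunits. The alternatives were 11 other settings (normalization, floor, filter, variance prior, replicate block, arrays in the fit, probe sets) and leaving out each of 12 arrays. A planned promoter motif search was not run and no positions are given, as no sequence table was used.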

Additional observations from a re-analysis of the deposited data

Results flagged for a closer look

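For mRpS16, all 4-week arrays lay above the 2-day arrays on the high-sugar diet and below them on the control diet, but neither change passed: the log2 fold change was 0.10 (limma adjusted p = 0.385) on the high-sugar diet and -0.20 (limma adjusted p = 0.0941) on the control diet. Its intensity was 524, 531 and 539 at 4 weeks on the high-sugar diet, against 497, 502 and 490 at 2 days, and 462, 469 and 524 at 4 weeks on the control diet, against 540, 589 and 545 at 2 days. The difference between the changes was 0.30 on the log2 scale (standard error 0.13), with an unadjusted limma p of 0.0315 and an adjusted p of 0.655, so it did not pass either.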

How the results depend on the processing

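The diet comparisons, their difference and their average called 0 of the 69 genes under all 23 alternatives. Feeding-time counts moved more, and 0 of the calls changed sign. On the high-sugar diet, leaving out 1 array gave 6 to 12 rises and 3 to 8 falls (3 to 7 falls in the large subunit; 3 to 7 rises and 0 to 2 falls in the small subunit), and quantile normalization gave 5 falls. The small-subunit falls were 1 with quantile normalization, array median centring, the replicate block or only the arrays compared. On the control diet, leaving out 1 array gave 4 to 14 rises and 1 to 6 falls (large subunit 1 to 5 rises and 1 to 4 falls, small subunit 3 to 10 rises and 0 to 2 falls). Only the arrays compared gave 5 rises and 1 fall there (large subunit 1 and 1, small subunit 4 rises), no filter 4 falls (2 in the small subunit), and quantile normalization 6 rises in the large subunit. The arrays that moved these counts most were high-sugar array 2 at 2 days, control arrays 1 and 3 at 2 days, and control array 3 at 4 weeks (7 rises and 6 falls without it). Same-numbered arrays deviated with r of -0.228 to 0.147 over 18 pairs, 4 of them over 0.1, and different-numbered arrays with r of -0.286 to 0.364. These values showed no pairing by number. They cannot exclude it, as the deviations of the 3 arrays of a group depend on each other. With the replicate block, 10 genes rose and 6 fell on the high-sugar diet and 11 rose and 2 fell on the control diet; it ended the calls of mRpL9 and mRpS9 on the high-sugar diet and of mRpS21 and mRpS31 on the control diet. Only the arrays compared ended those of mRpS9 on the high-sugar diet and of mRpL11, mRpL41, mRpL52, mRpS6, mRpS18B, mRpS21, mRpS31 and mRpS34 on the control diet. Of the 19 calls on the high-sugar diet (tko included), 7 held under all alternatives, and 4 of 14 on the control diet.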
